A study of Homo sapiens with 8 samples.

Results

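Gene levels at the start and at the end of a neural differentiation course of human embryonic stem cells were compared. The comparison used 4 of the 8 RNA-seq libraries of the series, the 2 taken at 34 h and the 2 taken at 72 h, and the 42 h and 50 h libraries served to estimate the spread and to place the changes in time. All 8 libraries came from ESI017, a human embryonic stem cell line whose genotype the labels give as wild type, and the labels name 1 line and no second clone. Cells were plated in mTeSR1 with ROCK inhibitor and then changed to N2B27 with SB at 10 µM and LDN at 100 nM, which every library shared. The 34 h libraries had received no WNT3A. The 72 h libraries had received recombinant human WNT3A at 300 ng/mL from 34 h on, so that they had spent 38 h with it. Libraries without WNT3A at 72 h were not analysed here, so time in culture and WNT3A cannot be told apart in any difference below.

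As background, stem cells from which Nodal, activin and BMP signals are withheld leave the pluripotent state and turn into neural progenitors of a forebrain kind, and SB and LDN are short names in common use for inhibitors of the receptors of those signals, although the labels give the short names alone. WNT proteins bind Frizzled receptors and LRP co-receptors, keep beta-catenin from being degraded and so switch on genes through TCF and LEF factors, and in the neural plate WNT moves identity from forebrain towards midbrain, hindbrain and spinal cord. Neural induction is also known for a change of cadherins, from the epithelial CDH1 to the neural CDH2.

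The labels call the cells human pluripotent stem cells at every time point, under a treatment towards posterior neural fate. Of 22 pluripotency genes 19 were tested, and POU5F1, the factor that defines the state, had 1165 and 1152 TPM at 34 h against 354 and 388 TPM at 72 h. NANOG, a second core factor, was low in all 4 libraries, with 2.46 and 1.59 TPM at 34 h against 0.38 and 0.983 TPM at 72 h (limma adjusted p 0.0576, and 0.0494 at a pseudocount of 0.1). Of 24 neural progenitor genes 20 were tested, and SOX1, the earliest neural factor of its family, had 1.63 and 2.14 TPM at 34 h against 56.5 and 45.2 TPM at 72 h. The 34 h libraries thus held most pluripotency markers with NANOG near 2 TPM, and the 72 h libraries held neural markers with POU5F1 still present.

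Levels are in TPM, which give the share of the transcripts in a library after scaling for gene length, and changes are differences of log2(TPM + 1), a scale on which the change of a low gene is understated. TPM keeps no read number, so depth is unknown and no counting interval is given. A library held 13860 to 14004 genes at 1 TPM or more, and genes of the mitochondrial genome held 10.2% and 11.2% of TPM at 34 h and 10.4% and 10.1% at 72 h. Spearman correlations over the 14908 tested genes were 0.983 between the 34 h libraries, 0.984 between the 72 h libraries and 0.933 to 0.937 between the time points. Pairs of values below are always in the order replicate 1, replicate 2. The series text describes the second replicate as an independent biological one. The p-values rest on the spread between 2 such libraries per time point, pooled over the 4 time points and drawn towards a trend over all genes.

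By limma, 3578 of 14908 genes (24%) passed an adjusted p of 0.05 at 72 h against 34 h, of which 1900 (12.7%) were raised and 1678 (11.3%) lowered. Each count of raised and lowered members of a list or family below stands against these shares of all genes. The lists and families were chosen with earlier results of these data known, so these counts are descriptions. The balance of directions turned under some alternatives. TMM rescaling gave 1589 raised and 1961 lowered genes, and quantile normalization 1638 and 1796. Raised and lowered counts were 909 and 958 without 72 h replicate 1. They were 964 and 1004 without 72 h replicate 2. They were 929 and 1006 without 34 h replicate 2. Of the raised genes 687 rose by at least 1 on the log2 scale, 137 by at least 2 and 18 by at least 4. Among the lowered genes 755 fell by at least 1, 178 by at least 2 and 7 by at least 4. The median size of a called change was 0.84 for raised and 0.94 for lowered genes, and the median over all tested genes was 0.06. In all 3578 the 2 libraries of one time point lay apart from the 2 of the other, while 36.7% of all tested genes had both 72 h libraries above both 34 h libraries and 27.9% had them below. Protein coding genes were called in 25.1% of 13744 cases and pseudogenes in 10.2% of 1014. The count rested on each end-point library: it was 2175 and 1935 without 34 h replicate 1 or 2, and 1867 and 1968 without 72 h replicate 1 or 2.

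**Figure D1:**
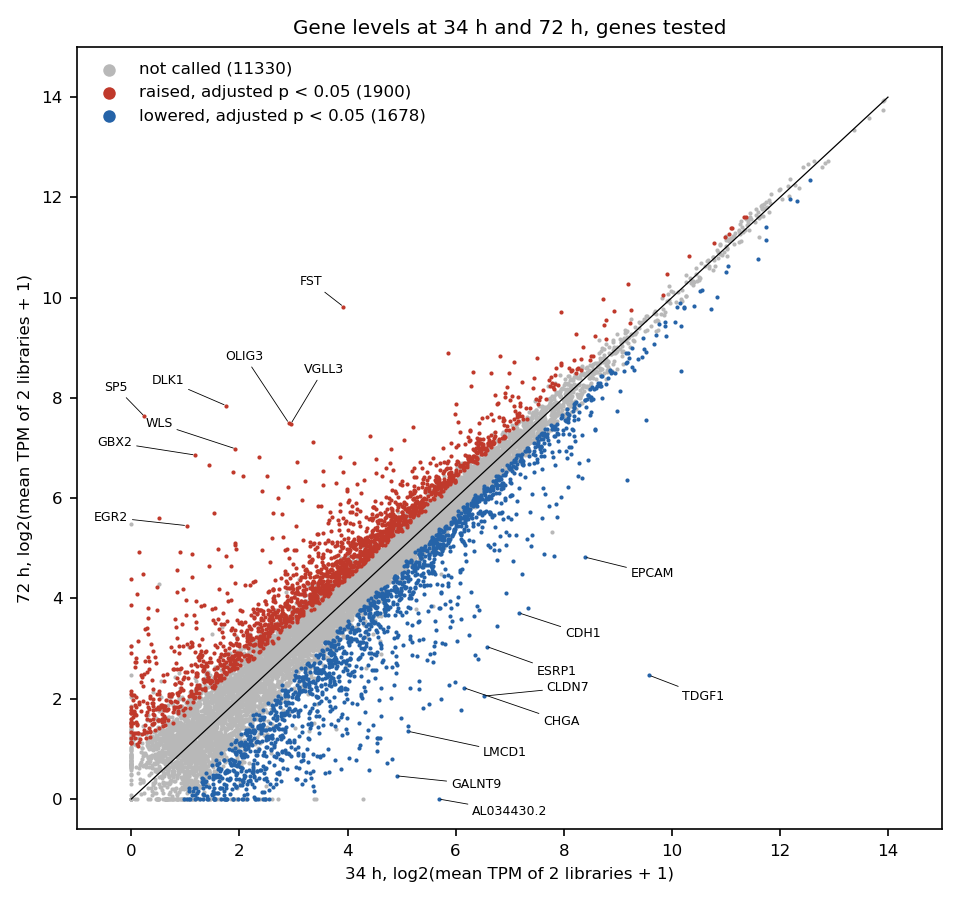
Level of each of the 14908 tested genes at 34 h (x axis) and 72 h (y axis), both as log2 of the mean TPM of 2 libraries plus 1, with the line of equal levels. Red points are the 1900 raised and blue points the 1678 lowered genes, and the genes labelled are examples far from the line, from SP5 and FST above it to TDGF1 and CLDN7 below it.

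The 15 largest rises among genes of at least 5 TPM were those of SP5, DLK1, FST, GBX2, NKD1, WNT8A, WLS, CYP26C1, MEIS2, OLIG3, VGLL3, EGR2, PRTG, HOXB1 and SMOC1. They ranged from 7.40 for SP5 to 4.37 for SMOC1 on the log2 scale. Of these genes SP5, WNT8A, CYP26C1 and HOXB1 were under 1 TPM in both 34 h libraries and entered the test only through later ones. OLIG3 (chromosome 6, 137492202 to 137494250, minus strand, GENCODE 29 on GRCh38), a basic helix-loop-helix factor of dorsal hindbrain and spinal cord progenitors, had 6.6 and 6.46 TPM at 34 h against 194 and 167 TPM at 72 h. That is a rise of 4.58 ± 0.17 (SE, adjusted p 3.39e-06), with 4.68 within replicate 1 and 4.49 within replicate 2. VGLL3 (chromosome 3, 86876388 to 86991119, minus strand), a cofactor of TEAD transcription factors, had 7.01 and 6.47 TPM at 34 h against 216 and 141 TPM at 72 h. Its 72 h libraries differed from each other more than its 34 h libraries, yet both lay far above 34 h (rise of 4.50 ± 0.22 (SE, adjusted p 8.63e-06)). PRTG (chromosome 15, 55611546 to 55743090, minus strand), or protogenin, an immunoglobulin superfamily receptor of the early neural tube, had 4.13 and 4.2 TPM at 34 h against 127 and 97.7 TPM at 72 h, a rise of 4.44 ± 0.15 (SE, adjusted p 2.42e-06). SMOC1 (chromosome 14, 69854131 to 70032366, plus strand), a secreted calcium-binding matrix protein, had 3.11 and 3.24 TPM at 34 h against 99.1 and 73.9 TPM at 72 h. None of these 4 genes had overlapping values at the 2 time points, and SMOC1 rose by 4.37 ± 0.18 (SE, adjusted p 4.83e-06). In bulk RNA a difference in the number of cells that express a gene and a difference in RNA per cell cannot be told apart, here and in all that follows.

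The 15 largest falls were those of TDGF1, AL034430.2, CLDN7, GALNT9, TRBC2, RAB17, HLA-DPB2, CHGA, ZNF488, LMCD1, PMAIP1, IGFBP3, ANXA3, IDO1 and GAL. CHGA (chromosome 14, 92923080 to 92935293, plus strand) codes for chromogranin A, a protein of secretory granules, and had 65.6 and 74.7 TPM at 34 h against 2.72 and 4.59 TPM at 72 h, summed over 2 Ensembl entries. GAL (chromosome 11, 68683779 to 68691175, plus strand), the neuropeptide galanin, had 86.5 and 82.7 TPM at 34 h against 5.09 and 6.75 TPM at 72 h. Both secretory genes were lower in each 72 h library than in each 34 h library, by 3.96 ± 0.19 (SE, adjusted p 7.64e-06) for CHGA and 3.64 ± 0.16 (SE, adjusted p 5.94e-06) for GAL. LMCD1 (chromosome 3, 8501707 to 8574673, plus strand), a LIM domain protein that binds GATA factors, had 34.3 and 33.3 TPM at 34 h against 1.12 and 1.98 TPM at 72 h, a fall of 3.79 ± 0.18 (SE, adjusted p 7.58e-06). PMAIP1 (chromosome 18, 59899948 to 59904306, plus strand), which codes for the proapoptotic protein NOXA, had 50.5 and 53.2 TPM at 34 h against 3.22 and 2.8 TPM at 72 h. RAB17 (chromosome 2, 237574322 to 237601614, minus strand), a small GTPase of traffic in polarised epithelial cells, had 29.8 and 25 TPM at 34 h against 1.01 and 0.458 TPM at 72 h. The values of PMAIP1 and RAB17 did not overlap between the time points, with falls of 3.72 ± 0.16 (SE, adjusted p 5.71e-06) and 4.04 ± 0.25 (SE, adjusted p 2.28e-05). AL034430.2 (chromosome 20, 10420546 to 10420737, minus strand) had 43.4 and 57.7 TPM at 34 h, was listed at 0 in the 42 h libraries, reached 20.8 and 36.7 TPM at 50 h and was listed at 0 in both 72 h libraries, so no fold is given. TRBC2 was summed over 2 Ensembl entries and HLA-DPB2 over 6, so their levels depend on how near-identical copies were counted.

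Epithelial genes such as CDH1, EPCAM and ESRP1 fell, and CDH2 and ZEB2 rose. The list of epithelial and mesenchymal state had 16 genes, all tested, of which 6 were raised and 9 lowered, with a median of -0.60 against 0.06 over all genes. Of the raised genes 2, ZEB1 and SNAI2, were under 1 TPM in both 34 h libraries and entered the test only through later ones. CDH1 (chromosome 16, 68737225 to 68835548, plus strand), E-cadherin, which holds epithelial cells together, had 150.0 and 137 TPM at 34 h against 11.7 and 12.5 TPM at 72 h. The 72 h libraries were both near 12 TPM, and the fall was 3.46 ± 0.11 (SE, adjusted p 1.88e-06). EPCAM (chromosome 2, 47345158 to 47387601, plus strand), an epithelial adhesion protein at the stem cell surface, had 320.0 and 349 TPM at 34 h against 23.7 and 31 TPM at 72 h, a fall of 3.57 ± 0.14 (SE, adjusted p 3.88e-06). ESRP1, a splicing factor that keeps epithelial exon choice, had 93.5 and 95.2 TPM at 34 h against 6.83 and 7.64 TPM at 72 h, a fall of 3.53 ± 0.10 (SE, adjusted p 1.35e-06). GRHL2, a transcription factor of epithelial junction genes, had 9.04 and 8.64 TPM at 34 h against 0.564 and 0.32 TPM at 72 h and fell by 2.78 ± 0.19 (SE, adjusted p 4.16e-05). CDH3, P-cadherin, had 120.1 and 94.3 TPM at 34 h against 7.2 and 12.6 TPM at 72 h. ESRP2, the partner of ESRP1, had 24.2 and 25.9 TPM at 34 h against 3.65 and 6.84 TPM at 72 h. For each of these 6 genes both 72 h libraries lay below both 34 h libraries, and CDH3 and ESRP2 fell by 3.35 ± 0.24 (SE, adjusted p 5.34e-05) and 2.11 ± 0.23 (SE, adjusted p 0.000467).

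On the other side of the list, CDH2 (chromosome 18, 27950966 to 28177446, minus strand), N-cadherin, had 15.2 and 14.6 TPM at 34 h against 73.3 and 70.2 TPM at 72 h, a rise of 2.20 ± 0.12 (SE, adjusted p 1.26e-05). ZEB2 (chromosome 2, 144364364 to 144524583, minus strand), a repressor that binds E-box sequences in epithelial promoters, had 4.92 and 3.74 TPM at 34 h against 80.4 and 59.6 TPM at 72 h, a rise of 3.73 ± 0.20 (SE, adjusted p 1.31e-05). Its relative ZEB1 was far lower, at 0.606 and 0.254 TPM at 34 h against 3.2 and 3.75 TPM at 72 h. SNAI2, a second such repressor, had 0.339 and 0.36 TPM at 34 h against 6.99 and 5.19 TPM at 72 h. All of these had both 72 h libraries above both 34 h libraries, with rises of 1.65 ± 0.28 (SE, adjusted p 0.00397) for ZEB1 and 2.38 ± 0.24 (SE, adjusted p 0.000315) for SNAI2. VIM, the filament protein vimentin, had 155 and 208 TPM at 34 h against 410.0 and 477 TPM at 72 h and rose by 1.30 ± 0.17 (SE, adjusted p 0.00112). TWIST1, a mesenchymal factor, did not pass and had 0.183 and 0.414 TPM at 34 h against 0.243 and 0 TPM at 72 h. The repressors thus differed in level, with ZEB2 above 50 TPM and ZEB1 and SNAI2 under 10 TPM at 72 h.

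**Figure D2:**
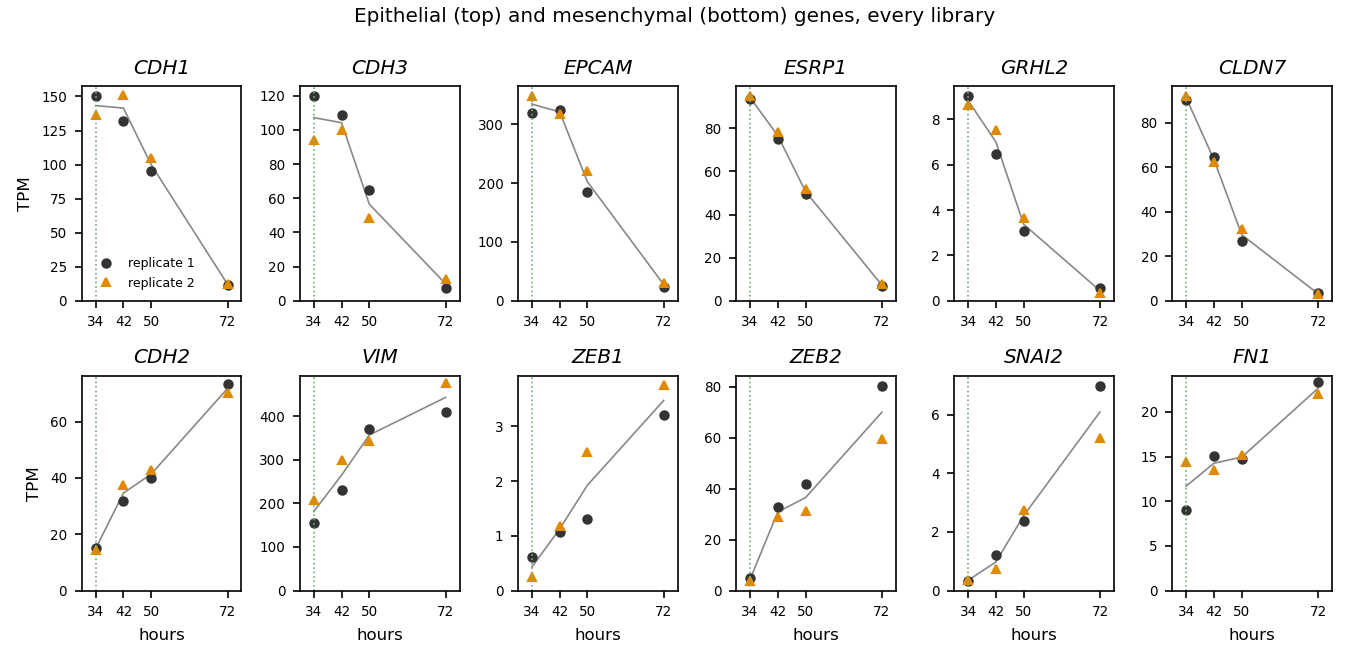
TPM in each library (y axis, linear) against hours since the start of differentiation (x axis) for 6 epithelial genes (top row) and 6 mesenchymal genes (bottom row). Circles are replicate 1, triangles replicate 2, the grey line joins the means of 2 libraries and the dotted line marks the addition of WNT3A at 34 h. CDH1 and CDH3 stay near their 34 h level at 42 h and drop by 72 h, while ZEB2 is already near 30 TPM at 42 h.

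Among claudins, some of them also on that list, and among keratins more genes were lowered than raised. Of 13 tested claudins, the strand proteins of tight junctions, 8 were lowered and 0 raised, with a median of -0.50. The count of lowered claudins was 5, 4, 5 and 5 without 34 h replicate 1, 34 h replicate 2, 72 h replicate 1 and 72 h replicate 2 in that order, and 1 was raised without either 50 h replicate. CLDN7 (chromosome 17, 7259903 to 7263983, minus strand) had 90.3 and 92.1 TPM at 34 h against 3.44 and 2.86 TPM at 72 h. CLDN4 had 17.6 and 11.9 TPM at 34 h against 2.61 and 3.88 TPM at 72 h. CLDN3 had 33 and 26.3 TPM at 34 h against 13 and 13.1 TPM at 72 h. Their falls were 4.48 ± 0.13 (SE, adjusted p 1.35e-06), 1.89 ± 0.30 (SE, adjusted p 0.00303) and 1.12 ± 0.17 (SE, adjusted p 0.00258). Of 6 tested keratins 3 were lowered, and KRT18, which pairs with KRT8 in simple epithelia, had 272 and 267 TPM at 34 h against 69.5 and 78.5 TPM at 72 h and fell by 1.85 ± 0.10 (SE, adjusted p 1.22e-05). KRT19 did not pass, with 208 and 174 TPM at 34 h against 164 and 173 TPM at 72 h. CRB3, AP1M2 and MARVELD3 are on none of the lists and were chosen after their values were seen. CRB3 (Crumbs 3, a polarity protein of the apical membrane) had 24.7 and 20.3 TPM at 34 h against 0.816 and 1.86 TPM at 72 h, and AP1M2 (an epithelial clathrin adaptor subunit) had 84.2 and 78.7 TPM at 34 h against 5.89 and 6.83 TPM at 72 h. MARVELD3, a tight junction membrane protein, had 25.7 and 20.8 TPM at 34 h against 1.09 and 1.56 TPM at 72 h. All 3 fell, by 3.36 ± 0.25 (SE, adjusted p 6.47e-05), 3.49 ± 0.17 (SE, adjusted p 7.58e-06) and 3.38 ± 0.20 (SE, adjusted p 1.81e-05).

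The promoters of CRB3 and AP1M2 are shown because both fell steeply and both hold several copies of CACCTG, the E-box sequence to which ZEB and SNAI repressors are known to bind. The sequences are RefSeq GRCh38.p14, 250 bases before to 50 bases after the gene start, written 5′ to 3′ on the gene strand, and capitals mark CACCTG or its reverse complement CAGGTG.
CRB3, chr19:6464021-6464320, plus strand: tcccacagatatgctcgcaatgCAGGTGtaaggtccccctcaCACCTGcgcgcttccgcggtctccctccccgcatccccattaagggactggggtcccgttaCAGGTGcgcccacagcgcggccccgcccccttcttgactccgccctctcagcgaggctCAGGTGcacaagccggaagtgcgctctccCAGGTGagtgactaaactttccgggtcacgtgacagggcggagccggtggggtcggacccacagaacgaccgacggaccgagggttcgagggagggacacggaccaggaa
AP1M2, chr19:10587263-10587562, minus strand: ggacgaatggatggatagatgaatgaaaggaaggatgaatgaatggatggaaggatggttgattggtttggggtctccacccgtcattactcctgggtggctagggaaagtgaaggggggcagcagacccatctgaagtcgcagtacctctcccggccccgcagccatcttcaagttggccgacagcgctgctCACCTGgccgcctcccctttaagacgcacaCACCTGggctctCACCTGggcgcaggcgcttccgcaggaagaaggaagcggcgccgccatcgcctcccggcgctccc
CRB3 held 5 matches and AP1M2 held 3. Searched on both strands, CACCTG occurred in 20.6% of all 35116 promoters in the table, and 3 or more copies occurred in 0.635%. Counted per gene over the 10750 tested genes with a promoter there, the shares were 24.6% and 0.623%. Of the epithelial and mesenchymal list 7 genes had a promoter in the table and 3 of them held the motif. A match is a description of these letters and not evidence of binding, and CRB3 and AP1M2 were picked after their falls and their motifs were seen.

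Other adhesion and matrix families had genes called in both directions. The share called was 33.3% of protocadherins and 26.3% of genes with integrin symbols, the latter near the 24% of all genes. The integrin symbols include ITGB1BP1, ITGB1BP2 and ITGB3BP, which are named for proteins that bind integrins. Of 16 tested genes with CDH symbols 7 were raised and 2 lowered, the latter CDH1 and CDH3. CDH23, a cadherin known from hair cells of the inner ear, had 5.81 and 5.91 TPM at 34 h against 52.9 and 47.8 TPM at 72 h and rose by 2.90 ± 0.15 (SE, adjusted p 1.20e-05). Among 33 tested protocadherins 8 were raised and 3 lowered, and 6 of the raised ones belonged to the gamma cluster, whose members share constant exons and can share reads. PCDH8, a protocadherin outside the cluster, had 3.46 and 1.74 TPM at 34 h against 22.2 and 25.6 TPM at 72 h and rose by 2.83 ± 0.24 (SE, adjusted p 0.000141). PCDH7 fell, by 1.85 ± 0.22 (SE, adjusted p 0.000695), from 9.26 and 8.7 TPM at 34 h to 1.61 and 1.92 TPM at 72 h. Of 29 tested collagens 11 were raised and 3 lowered. COL2A1, the fibrillar collagen of cartilage, had 12.4 and 8.68 TPM at 34 h against 26.7 and 28.4 TPM at 72 h, and COL1A1, the main collagen of connective tissue, had 113 and 79.4 TPM at 34 h against 32.2 and 33 TPM at 72 h. COL2A1 rose by 1.33 ± 0.18 (SE, adjusted p 0.00148) and COL1A1 fell by 1.51 ± 0.20 (SE, adjusted p 0.00138), with no overlap of the time points in either. Of 10 tested laminins 1 was raised, LAMA1, with 19 and 17.1 TPM at 34 h against 39 and 31.6 TPM at 72 h, and 3 were lowered, a count that was 1, 1 and 1 without 34 h replicate 1, 72 h replicate 1 and 72 h replicate 2 in that order. Of 19 genes with integrin symbols 4 were raised and 1 lowered. The raised count was 1, 1, 2 and 2 without 34 h replicate 1, 34 h replicate 2, 72 h replicate 1 and 72 h replicate 2 in that order, and ITGA5, a fibronectin receptor chain, had 17.2 and 12.8 TPM at 34 h against 33.6 and 33.8 TPM at 72 h and rose by 1.13 ± 0.15 (SE, adjusted p 0.0012).

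Members of the pluripotency list differed widely from one another. Of 19 tested genes 9 were lowered and 2 raised, with a median of -0.83. L1TD1 (chromosome 1, 62194831 to 62212328, plus strand), an RNA-binding protein of human pluripotent cells, had 172 and 225 TPM at 34 h against 29.3 and 28.1 TPM at 72 h, a fall of 2.74 ± 0.17 (SE, adjusted p 2.72e-05). ZSCAN10, a zinc finger factor of the stem cell network, had 189.8 and 151 TPM at 34 h against 33.3 and 41.7 TPM at 72 h. TERF1, a telomere-binding protein that is abundant in these cells, had 236 and 226 TPM at 34 h against 67.9 and 48.2 TPM at 72 h. Neither overlapped between the time points, with falls of 2.15 ± 0.19 (SE, adjusted p 0.00016) and 2.00 ± 0.21 (SE, adjusted p 0.000387). DNMT3B, the de novo DNA methyltransferase of the pluripotent state, had 558 and 452 TPM at 34 h against 207 and 216 TPM at 72 h, and DPPA4, a chromatin protein, had 372 and 393 TPM at 34 h against 166 and 165 TPM at 72 h. LIN28B, which blocks let-7 microRNA maturation, did not pass, with 60.3 and 57.4 TPM at 34 h against 58.6 and 48.8 TPM at 72 h. SOX2, which both pluripotent and neural cells express, rose by 0.64 ± 0.08 (SE, adjusted p 0.00117), from 224 and 211 TPM at 34 h to 348 and 333 TPM at 72 h. The list therefore ran from TDGF1, at -7.17, to SOX2, at 0.64.

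In the Nodal and activin list FST (chromosome 5, 53480409 to 53487134, plus strand) codes for follistatin, a secreted protein that binds and blocks activin, and had 13.4 and 14.8 TPM at 34 h against 933 and 877 TPM at 72 h. Both 72 h libraries lay far above both 34 h libraries, a rise of 5.90 ± 0.08 (SE, adjusted p 2.00e-08) with 6.01 within replicate 1 and 5.79 within replicate 2. Of 16 tested genes of the list 4 were raised and 4 lowered, and the lowered count was 2 without 34 h replicate 2. Of the 4 raised genes 1 was under 1 TPM in both 34 h libraries and entered the test only through later ones. The ligand NODAL was low throughout, with 0.572 and 0.449 TPM at 34 h against 0.417 and 0.361 TPM at 72 h, and did not pass. INHBA, the activin A subunit, had 2.03 and 2.52 TPM at 34 h against 0.0997 and 0.13 TPM at 72 h and fell by 1.55 ± 0.25 (SE, adjusted p 0.00312). SMAD3, which carries the signal to the nucleus, had 15.3 and 8.98 TPM at 34 h against 33.9 and 34 TPM at 72 h, and the receptor TGFBR1 had 29.1 and 25.2 TPM at 34 h against 56.7 and 48 TPM at 72 h. SMAD3 rose by 1.46 ± 0.24 (SE, adjusted p 0.00374) and TGFBR1 by 0.92 ± 0.13 (SE, adjusted p 0.00158).

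The BMP list was called in both directions, with the antagonists CHRD and NOG among the raised genes and the ligands BMP7 and BMP4 among the lowered. Of 20 tested genes 8 were raised and 6 lowered, and the lowered count was 2, 3, 3 and 3 without 34 h replicate 1, 34 h replicate 2, 72 h replicate 1 and 72 h replicate 2 in that order. Of the raised genes 5 were under 1 TPM in both 34 h libraries and could enter the test only through later ones, and 3 of the other 15 tested genes were raised. CHRD (chordin, a secreted BMP trap) had 1.15 and 1.3 TPM at 34 h against 13.4 and 10.2 TPM at 72 h and rose by 2.52 ± 0.24 (SE, adjusted p 0.000221). NOG (noggin, a second trap) had 0.0307 and 0.0386 TPM at 34 h against 1.73 and 2.77 TPM at 72 h and rose by 1.63 ± 0.27 (SE, adjusted p 0.00362). The ligand BMP7 had 27.3 and 22.1 TPM at 34 h against 7.53 and 10.7 TPM at 72 h, and BMP4 had 6.41 and 6.13 TPM at 34 h against 2.46 and 1.99 TPM at 72 h. Both ligands fell, by 1.36 ± 0.23 (SE, adjusted p 0.00401) and 1.17 ± 0.20 (SE, adjusted p 0.00393). Targets did not move as 1 group: ID2 had 24.3 and 29.3 TPM at 34 h against 129.9 and 119.9 TPM at 72 h, a rise of 2.18 ± 0.11 (SE, adjusted p 1.13e-05), while ID3 did not pass, with 236 and 195 TPM at 34 h against 214 and 279.7 TPM at 72 h. MSX2, a BMP and WNT target of the dorsal neural tube, rose by 1.69 ± 0.28 (SE, adjusted p 0.00358) to 2.47 and 3.82 TPM.

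Among WNT feedback and target genes and Frizzled receptors more genes were raised than lowered, and ligands were called equally in both directions. Of 18 tested feedback and target genes 11 were raised and 2 lowered, against 12.7% and 11.3% of all genes, with a median of 1.59. Among 10 tested WNT ligands 3 were raised and 3 lowered. WNT8A had 0.402 and 0.454 TPM at 34 h against 49.4 and 45.8 TPM at 72 h and WNT3 had 0.0991 and 0.25 TPM at 34 h against 4.42 and 4.83 TPM at 72 h. WNT7B had 5.33 and 3.3 TPM at 34 h against 0.182 and 0.0228 TPM at 72 h. WNT4 had 17.1 and 20.4 TPM at 34 h against 6.11 and 7.92 TPM at 72 h. The rises were 5.09 ± 0.23 (SE, adjusted p 6.38e-06) and 2.26 ± 0.23 (SE, adjusted p 0.000323), and the falls 2.25 ± 0.28 (SE, adjusted p 0.000892) and 1.30 ± 0.20 (SE, adjusted p 0.00241). WLS (chromosome 1, 68098473 to 68233120, minus strand), the carrier that WNT proteins need for secretion, had 3.41 and 2.17 TPM at 34 h against 113 and 139 TPM at 72 h, a rise of 5.08 ± 0.21 (SE, adjusted p 5.12e-06). Of the 10 Frizzled receptors, all tested, 5 were raised and 1 lowered. FZD10 had 0.265 and 0.104 TPM at 34 h against 9.37 and 9.54 TPM at 72 h. FZD1 had 0.729 and 0.775 TPM at 34 h against 9.66 and 12.4 TPM at 72 h. FZD5, a forebrain and eye field receptor, had 20.5 and 19.4 TPM at 34 h against 7.55 and 8.71 TPM at 72 h. FZD10 rose by 3.15 ± 0.22 (SE, adjusted p 4.76e-05) and FZD1 by 2.77 ± 0.18 (SE, adjusted p 2.93e-05), and FZD5 fell by 1.20 ± 0.14 (SE, adjusted p 0.000651). The most abundant Frizzled, FZD7, did not pass, with 406 and 368 TPM at 34 h against 367 and 363 TPM at 72 h.

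Other WNT receptors and antagonists were called too. ROR2 and LRP4 are on none of the lists and were named after their values were seen. ROR2, a receptor tyrosine kinase for WNT5A-type ligands, had 5.33 and 4.09 TPM at 34 h against 85.5 and 87.6 TPM at 72 h and rose by 3.95 ± 0.20 (SE, adjusted p 9.05e-06). LRP4, a receptor that binds WNT antagonists, had 6.2 and 6.76 TPM at 34 h against 75.3 and 71.9 TPM at 72 h and rose by 3.32 ± 0.11 (SE, adjusted p 2.42e-06). Of 8 tested SFRP and DKK type antagonists 2 were raised and 3 lowered. SFRP2 had 276 and 288 TPM at 34 h against 131 and 128 TPM at 72 h and fell by 1.11 ± 0.08 (SE, adjusted p 3.71e-05), and FRZB had 3.35 and 4.37 TPM at 34 h against 18 and 20.9 TPM at 72 h and rose by 2.07 ± 0.16 (SE, adjusted p 8.39e-05). NKD1, an intracellular feedback inhibitor, had 0.859 and 2.59 TPM at 34 h against 77.7 and 123 TPM at 72 h, a rise of 5.26 ± 0.33 (SE, adjusted p 2.70e-05). TCF7L1, the TCF factor that acts mainly as a repressor in stem cells, had 96.8 and 81.1 TPM at 34 h against 40.4 and 44 TPM at 72 h and fell by 1.05 ± 0.13 (SE, adjusted p 0.000876).

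The promoter of SP5 is shown because SP5 had the largest rise of the rule, 7.40 ± 0.20 (SE, adjusted p 1.24e-06), from 0.255 and 0.106 TPM at 34 h to 201 and 194 TPM at 72 h, and is a known direct target of beta-catenin with TCF and LEF factors. SP5 was under 1 TPM in both 34 h libraries, so it entered the test only through later ones. Capitals mark CTTTGA, the core letters of the TCF and LEF motif, or the reverse complement TCAAAG, in RefSeq GRCh38.p14, 5′ to 3′ on the gene strand.
SP5, chr2:170715087-170715386, plus strand: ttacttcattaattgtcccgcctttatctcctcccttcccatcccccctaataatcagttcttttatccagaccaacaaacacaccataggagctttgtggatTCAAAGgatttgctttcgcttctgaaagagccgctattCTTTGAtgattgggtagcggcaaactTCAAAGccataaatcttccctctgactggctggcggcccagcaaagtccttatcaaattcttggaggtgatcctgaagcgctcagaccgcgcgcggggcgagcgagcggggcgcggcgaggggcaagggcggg
It held 3 matches. Searched on both strands, CTTTGA occurred in 12.9% of all promoters and 3 or more copies in 0.0997%. Counted per gene over the 10750 tested genes with a promoter, the shares were 12.1% and 0.0465%. Of the WNT list 11 genes had a promoter in the table, and 3 held the motif. A match describes letters in this window and was not tested as a binding site.

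In the FGF and ERK list more genes were lowered than raised. Of 23 tested genes 10 were lowered and 3 raised, with a median of -0.24, the raised count being 1, 1, 1 and 1 without 34 h replicate 1, 34 h replicate 2, 72 h replicate 1 and 72 h replicate 2 in that order. Of the 3 raised genes 1 was under 1 TPM in both 34 h libraries and entered the test only through later ones. ETV4, a transcription factor that FGF signals switch on, had 66.1 and 61.9 TPM at 34 h against 9.66 and 17.9 TPM at 72 h, a fall of 2.19 ± 0.25 (SE, adjusted p 0.000636). SPRY4 and SPRY1, inhibitors of receptor tyrosine kinase signalling, had 34.8 and 34.9 TPM at 34 h against 8.55 and 8.47 TPM at 72 h for SPRY4 and 14.6 and 15.9 TPM at 34 h against 3.87 and 4.39 TPM at 72 h for SPRY1. DUSP4, a phosphatase of ERK, had 6.87 and 6.04 TPM at 34 h against 2.67 and 2.95 TPM at 72 h. None of the 4 overlapped between the time points, and the falls of SPRY4, SPRY1 and DUSP4 were 1.91 ± 0.12 (SE, adjusted p 2.11e-05), 1.66 ± 0.16 (SE, adjusted p 0.000279) and 0.97 ± 0.17 (SE, adjusted p 0.00541). The ligand FGF2 had 67.7 and 45.8 TPM at 34 h against 18.1 and 17.8 TPM at 72 h and fell by 1.58 ± 0.26 (SE, adjusted p 0.00393). FGFR3 (chromosome 4, 1793293 to 1808872, plus strand), a receptor of neural progenitors, had 23.8 and 17 TPM at 34 h against 161 and 141 TPM at 72 h and rose by 2.84 ± 0.20 (SE, adjusted p 4.73e-05). FGFR2, its relative, did not pass, with 58.3 and 57.9 TPM at 34 h against 47.9 and 50.4 TPM at 72 h. FGF8, the ligand of the isthmus, had 7.25 and 7.89 TPM at 34 h against 10.1 and 10.7 TPM at 72 h and did not pass.

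In the hedgehog list 7 of 11 tested genes were raised and 1 lowered, against 12.7% and 11.3% of all genes, and the raised count was 4, 2 and 4 without 34 h replicate 2, 72 h replicate 1 and 72 h replicate 2 in that order. BOC (chromosome 3, 113211003 to 113287459, plus strand), a co-receptor of hedgehog ligands, had 16.5 and 14.5 TPM at 34 h against 58.4 and 45.4 TPM at 72 h and rose by 1.67 ± 0.19 (SE, adjusted p 0.000621). SUFU, which restrains GLI factors, had 10.7 and 9.79 TPM at 34 h against 19.3 and 21.5 TPM at 72 h and rose by 0.93 ± 0.13 (SE, adjusted p 0.00189). GLI1, the usual readout of pathway activity, had 23.5 and 12.7 TPM at 34 h against 16.4 and 11.3 TPM at 72 h and did not pass. In the Notch list 4 of 17 tested genes were raised and 2 lowered, or 35.3% against 24% of all genes. NOTCH3, a receptor of progenitors, had 36.3 and 24.6 TPM at 34 h against 74.2 and 80.1 TPM at 72 h, and MFNG, a glycosyltransferase that tunes Notch receptors, had 2.83 and 1.65 TPM at 34 h against 8.43 and 8.32 TPM at 72 h. NOTCH3 rose by 1.34 ± 0.19 (SE, adjusted p 0.00169) and MFNG by 1.56 ± 0.23 (SE, adjusted p 0.00247), whereas its relative LFNG fell by 1.19 ± 0.13 (SE, adjusted p 0.000569), from 44.9 and 41.3 to 18.6 and 17.9 TPM. The ligand DLL1 did not pass, with 2.51 and 2.38 TPM at 34 h against 2.99 and 2.56 TPM at 72 h.

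In the retinoic acid list 6 of 16 tested genes were raised and 1 lowered, against 12.7% and 11.3% of all genes, and 3 of the 6 were under 1 TPM in both 34 h libraries. DHRS3, an enzyme that returns retinaldehyde to retinol, had 39 and 32 TPM at 34 h against 5.73 and 6.81 TPM at 72 h and fell by 2.33 ± 0.16 (SE, adjusted p 4.70e-05). CRABP2, which carries retinoic acid to nuclear receptors, had 284 and 209 TPM at 34 h against 814 and 863 TPM at 72 h and rose by 1.78 ± 0.21 (SE, adjusted p 0.000714). STRA6, the membrane receptor for retinol-binding protein, had 24.4 and 23 TPM at 34 h against 44.2 and 56.5 TPM at 72 h and rose by 1.05 ± 0.17 (SE, adjusted p 0.00336). RXRG had 0.323 and 0.295 TPM at 34 h against 4.18 and 4.2 TPM at 72 h and RARB had 0.087 and 0.0436 TPM at 34 h against 2.93 and 2.21 TPM at 72 h, both nuclear receptors that were near the lower limit at 34 h. They rose by 1.99 ± 0.24 (SE, adjusted p 0.000782) and 1.74 ± 0.26 (SE, adjusted p 0.00251).

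Neural progenitor genes were raised in 15 of 20 tested cases and lowered in 0, with 5 not called and a median of 1.18. Of the 20, 5 were under 1 TPM in both 34 h libraries, so that they could enter the test only through later libraries, and all 5 were raised, while 10 of the other 15 were raised. The counts are given as a description. LIX1 (chromosome 5, 97091867 to 97142872, minus strand), a gene of early neural tissue, had 0.171 and 0.161 TPM at 34 h against 23.5 and 19.6 TPM at 72 h, a rise of 4.27 ± 0.17 (SE, adjusted p 4.61e-06). RFX4, a factor of the neural tube, had 1.09 and 0.246 TPM at 34 h against 6.55 and 7.69 TPM at 72 h, and SOX21, a SOXB2 factor of progenitors, had 40.5 and 32.2 TPM at 34 h against 108 and 83.3 TPM at 72 h. Their rises were 2.33 ± 0.34 (SE, adjusted p 0.00214) and 1.37 ± 0.17 (SE, adjusted p 0.000892). FABP7, a fatty acid carrier of radial glia, had 15 and 16 TPM at 34 h against 31 and 34.2 TPM at 72 h, and NES, the filament protein nestin, had 137 and 132 TPM at 34 h against 236 and 222 TPM at 72 h. Both changed by less than the median gene of the list, with rises of 1.03 ± 0.14 (SE, adjusted p 0.00173) and 0.76 ± 0.13 (SE, adjusted p 0.00507). PAX6 and NR2F2 reached 4.01 and 3.59 TPM and 4.35 and 3.75 TPM at 72 h from below 1 TPM. MSI1, an RNA-binding protein of progenitors, did not pass, with 48.5 and 44.7 TPM at 34 h against 54.6 and 54.7 TPM at 72 h.

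Regional factors followed. Of 17 hindbrain genes 9 were tested and all 9 were raised, but 6 of them were under 1 TPM in both 34 h libraries and entered the test only through later ones, so that count is given as a description only. MEIS2 (chromosome 15, 36889204 to 37101299, minus strand), a partner of HOX proteins, had 2.11 and 3.25 TPM at 34 h against 86.8 and 95.8 TPM at 72 h, a rise of 4.66 ± 0.18 (SE, adjusted p 4.39e-06). HOXB1, a HOX gene of the hindbrain, was listed at 0 in both 34 h libraries and reached 18.5 and 21.3 TPM at 72 h. Of 39 HOX genes 5 were tested. Of 13 forebrain genes 6 were tested, with 3 lowered and 0 raised, and FEZF1 had 53.3 and 47.6 TPM at 34 h against 9.41 and 16.5 TPM at 72 h, a fall of 1.93 ± 0.32 (SE, adjusted p 0.00362). Of 10 midbrain and isthmus genes 5 were tested, with 2 raised. Both raised genes were under 1 TPM in both 34 h libraries, and of the other 3 none was called raised by limma. DMBX1, a midbrain homeobox factor, had 0.612 and 0.433 TPM at 34 h against 3.13 and 5.13 TPM at 72 h and rose by 1.73 ± 0.28 (SE, adjusted p 0.00335). Of 12 caudal progenitor and primitive streak genes 8 were tested and 1 was raised, WNT8A. Of the 8, 6 were under 1 TPM in both 34 h libraries. Those 6 could enter the test only through later libraries, so the following is a description. Medians against 34 h were 2.16 at 42 h, 2.29 at 50 h and 0.16 at 72 h. TBXT, the mesoderm and streak factor, had 0.831 and 1.16 TPM at 34 h against 1.62 and 1.87 TPM at 72 h and did not pass between the end points. PHOX2A, a homeobox factor of hindbrain and autonomic neurons picked with its values in view, had 1.01 and 1.37 TPM at 34 h against 28.6 and 28.7 TPM at 72 h and rose by 3.76 ± 0.20 (SE, adjusted p 1.22e-05).

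Transcription factor families were called in part. Of 13 tested SOX genes 6 were raised and 0 lowered, and SOX11, a factor of neural and mesenchymal progenitors, had 28.4 and 26.6 TPM at 34 h against 60.8 and 47.5 TPM at 72 h and rose by 0.94 ± 0.13 (SE, adjusted p 0.00196). Forkhead genes were lowered in 12 of 24 tested cases and raised in 2, with a median of -0.62. FOXO1, a factor under control of insulin signalling, had 21 and 18.7 TPM at 34 h against 3.9 and 4.31 TPM at 72 h, and FOXJ1, the factor of motile cilia, had 16 and 13.6 TPM at 34 h against 1.35 and 1.63 TPM at 72 h. FOXO4 had 54.4 and 41.3 TPM at 34 h against 9.6 and 12 TPM at 72 h. FOXN3 had 45.5 and 39.7 TPM at 34 h against 25.9 and 23 TPM at 72 h. These 4 fell, by 2.03 ± 0.14 (SE, adjusted p 4.94e-05), 2.67 ± 0.18 (SE, adjusted p 3.96e-05), 2.04 ± 0.25 (SE, adjusted p 0.000876) and 0.77 ± 0.14 (SE, adjusted p 0.00541). FOXB1 (chromosome 15, 60004222 to 60061730, plus strand), a neural forkhead factor, went the other way, with 13.9 and 14.4 TPM at 34 h against 92.8 and 90.2 TPM at 72 h and a rise of 2.61 ± 0.12 (SE, adjusted p 6.50e-06). Of 4 tested ZIC genes 2 were raised, among them ZIC2 from 167 and 175 to 303 and 279.7 TPM. Of 4 tested Iroquois genes IRX1 rose by 2.98 ± 0.17 (SE, adjusted p 1.51e-05), from 15.1 and 11.8 to 104 and 121 TPM, and IRX2 by 0.64 ± 0.09 (SE, adjusted p 0.00139). Of 7 tested POU genes 2 were raised and 2 lowered. Both raised genes were under 1 TPM in both 34 h libraries, so that count is a description. POU3F2, a neural POU factor, had 0.119 and 0.0948 TPM at 34 h against 2.62 and 2.86 TPM at 72 h. Genes with ZNF symbols were called in 12.1% of 488 cases, below the 24% of all genes, with 41 raised and 18 lowered. Those counts were at most 23 and 10 when any 1 end-point library was left out.

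Eph receptors were called in 81.8% of cases, ephrins in 62.5% and semaphorins in 68.4%, against 24% of all genes. Slit, robo, netrin and UNC5 genes were called in 28.6%, near the share of all genes. Of 11 tested Eph receptors 6 were raised and 3 lowered, and of 8 ephrins, their membrane-bound ligands, 5 were raised and 0 lowered. EPHA4 (chromosome 2, 221418027 to 221574202, minus strand), known from the odd-numbered segments of the hindbrain, had 8.89 and 5.93 TPM at 34 h against 107 and 103 TPM at 72 h, a rise of 3.67 ± 0.17 (SE, adjusted p 7.12e-06). EPHA7 had 1.22 and 1.9 TPM at 34 h against 7.64 and 5.59 TPM at 72 h. EPHB3 had 2.88 and 2.68 TPM at 34 h against 18.6 and 18.9 TPM at 72 h. EPHA1, an epithelial Eph receptor, had 45.6 and 49.5 TPM at 34 h against 5.58 and 7.56 TPM at 72 h. EPHA7 rose by 1.57 ± 0.24 (SE, adjusted p 0.00261), EPHB3 rose by 2.39 ± 0.32 (SE, adjusted p 0.00139) and EPHA1 fell by 2.69 ± 0.17 (SE, adjusted p 2.93e-05). The ligand EFNB1 had 13.1 and 12.4 TPM at 34 h against 74.9 and 80.1 TPM at 72 h and rose by 2.51 ± 0.18 (SE, adjusted p 4.83e-05), and EFNA2 had 4.52 and 4.65 TPM at 34 h against 13.5 and 15.5 TPM at 72 h and rose by 1.47 ± 0.15 (SE, adjusted p 0.000406). Of 19 tested semaphorins 9 were raised and 4 lowered. Of the raised ones 1, SEMA3C, was under 1 TPM in both 34 h libraries and entered the test only through later ones. SEMA3C had 0.228 and 0.203 TPM at 34 h against 10.1 and 9.23 TPM at 72 h. SEMA3E had 2.15 and 2.0 TPM at 34 h against 17 and 17.7 TPM at 72 h. SEMA6D had 14.6 and 11.7 TPM at 34 h against 2.03 and 1.97 TPM at 72 h. The secreted SEMA3C and SEMA3E rose by 3.14 ± 0.16 (SE, adjusted p 1.13e-05) and 2.58 ± 0.16 (SE, adjusted p 2.70e-05), and the membrane protein SEMA6D fell by 2.23 ± 0.21 (SE, adjusted p 0.000216). Of 14 tested slit, robo, netrin and UNC5 genes 2 were raised and 2 lowered, and the raised count was 1, 0 and 0 without 34 h replicate 1, 34 h replicate 2 and 72 h replicate 2 in that order. Both lowered genes were netrin receptors. UNC5A had 7.82 and 7.39 TPM at 34 h against 1.29 and 1.5 TPM at 72 h. UNC5B had 24.5 and 21.8 TPM at 34 h against 9.21 and 10.7 TPM at 72 h. These were falls of 1.85 ± 0.18 (SE, adjusted p 0.000257) and 1.14 ± 0.14 (SE, adjusted p 0.000909).

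Genes of the amino acid stress response were lower, and all but 1 passed. Of 15 genes, all tested, 14 were lowered and 0 raised, with a median of -0.91 against 0.06 over all genes. In this response the factor ATF4 switches on amino acid synthesis and transport genes when amino acids are scarce or the endoplasmic reticulum is stressed. ASNS (chromosome 7, 97852118 to 97872542, minus strand), asparagine synthetase, had 258 and 359 TPM at 34 h against 83.2 and 89 TPM at 72 h, a fall of 1.81 ± 0.15 (SE, adjusted p 0.000126). CHAC1, an enzyme that breaks down glutathione, had 56.9 and 53 TPM at 34 h against 7.12 and 7.99 TPM at 72 h, a fall of 2.71 ± 0.13 (SE, adjusted p 7.55e-06). DDIT3, the factor CHOP, had 17.9 and 24.9 TPM at 34 h against 3.33 and 6.52 TPM at 72 h, and TRIB3, a pseudokinase, had 9.18 and 8.59 TPM at 34 h against 2.3 and 2.42 TPM at 72 h. The serine pathway enzymes PHGDH and PSAT1 had 657 and 611 TPM at 34 h against 365 and 388 TPM at 72 h for PHGDH and 497 and 561 TPM at 34 h against 294 and 268 TPM at 72 h for PSAT1. MTHFD2, a mitochondrial folate enzyme, had 222 and 232 TPM at 34 h against 103 and 97.4 TPM at 72 h. ATF4 itself had 530.0 and 606 TPM at 34 h against 420.5 and 409 TPM at 72 h and fell by 0.45 ± 0.09 (SE, adjusted p 0.00919), a call that was lost without 34 h replicate 2 (limma adjusted p 0.067) and without 72 h replicate 2 (0.0626). SLC7A11, a cystine carrier, was lower too but was not called, with 28.6 and 28.8 TPM at 34 h against 21.4 and 21.1 TPM at 72 h. Its limma adjusted p was 0.0545, and 0.0486 with the replicate number as a block. SLC7A11 passed in 7 of 17 alternatives, among them TMM rescaling (limma adjusted p 0.0364) and quantile normalization (0.0341) and the fits without 50 h replicate 1 (0.0422) or 2 (0.0429). In the 7 genes ASNS to MTHFD2 both 72 h libraries were below both 34 h libraries, and the serine and folate enzymes fell by 0.75 ± 0.12 (SE, adjusted p 0.00331), 0.91 ± 0.09 (SE, adjusted p 0.000393) and 1.17 ± 0.09 (SE, adjusted p 5.60e-05). All libraries were in N2B27 and the labels give no time since the last change of medium, so the part of the medium in this result was not tested.

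The promoter of ASNS is shown because it holds TGATGAAA, a match to TGATGNAA, the letters of the element that ATF4 with a C/EBP factor is known to bind. The sequence is RefSeq GRCh38.p14, 5′ to 3′ on the gene strand, with the match in capitals.
ASNS, chr7:97872359-97872658, minus strand: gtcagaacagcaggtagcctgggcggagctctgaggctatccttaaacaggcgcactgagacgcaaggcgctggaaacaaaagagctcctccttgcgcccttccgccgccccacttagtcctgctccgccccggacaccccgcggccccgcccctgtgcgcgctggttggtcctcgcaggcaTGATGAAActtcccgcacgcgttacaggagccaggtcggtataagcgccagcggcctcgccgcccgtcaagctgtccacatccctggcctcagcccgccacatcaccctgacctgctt
TGATGNAA occurred on either strand in 3.62% of all promoters in the table. Counted per gene, it occurred in 2.68% of the 10750 tested genes with a promoter there. Of the amino acid stress list 12 genes had a promoter there, and 3 of them, ASNS, ATF3 and CHAC1, held it. The match is a description of the letters in this window.

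Cholesterol synthesis genes were called in 38.9% and glycolysis genes in 42.9% of cases, against 24% of all genes. Of 18 cholesterol synthesis genes 7 were lowered and 0 raised, with a median of -0.28. HMGCS1, an early enzyme of the pathway, had 248 and 227 TPM at 34 h against 149 and 159.9 TPM at 72 h and fell by 0.61 ± 0.08 (SE, adjusted p 0.00134). Of 21 glycolysis genes 3 were raised and 6 lowered, and with the replicate number as a block 9 were lowered. PFKP, the platelet form of phosphofructokinase, had 113 and 112 TPM at 34 h against 37 and 36.9 TPM at 72 h and fell by 1.58 ± 0.10 (SE, adjusted p 2.25e-05), and HK2, a hexokinase, had 46.1 and 37.7 TPM at 34 h against 18.7 and 17.9 TPM at 72 h and fell by 1.14 ± 0.13 (SE, adjusted p 0.000518). The glucose transporters went the other way: SLC2A1 had 120.4 and 88.6 TPM at 34 h against 248 and 282 TPM at 72 h. SLC2A3 had 118 and 134 TPM at 34 h against 388 and 336 TPM at 72 h. They rose by 1.35 ± 0.23 (SE, adjusted p 0.00401) and 1.51 ± 0.11 (SE, adjusted p 5.38e-05), and their raised libraries did not overlap the 34 h libraries.

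Metallothioneins are small proteins that bind zinc and copper. Of 8 metallothionein and zinc genes 6 were lowered and 0 raised. The median of the list was -1.92 at 50 h and -1.66 at 72 h, both against 34 h, and in 6 of the 8 the change after 50 h exceeded that before it by limma, a call that 0.463% of all genes had. MT2A had 219.8 and 201 TPM at 34 h against 51.9 and 61.7 TPM at 72 h and fell by 1.87 ± 0.11 (SE, adjusted p 1.87e-05), and MT1H had 37.8 and 51.1 TPM at 34 h against 2.71 and 2.72 TPM at 72 h and fell by 3.60 ± 0.20 (SE, adjusted p 1.34e-05). These genes are close copies of one another, so reads can be shared between them.

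Of 14 tested imprinted genes 8 were raised and 1 lowered, with a median of 0.61. The raised count was 5 without 72 h replicate 1. DLK1 (chromosome 14, 100725705 to 100738224, plus strand), a membrane protein related to Notch ligands and expressed from the paternal allele, had 3.08 and 1.66 TPM at 34 h against 253 and 206 TPM at 72 h, a rise of 6.12 ± 0.23 (SE, adjusted p 3.82e-06). PLAGL1, a zinc finger factor, had 1.28 and 1.05 TPM at 34 h against 15.9 and 25 TPM at 72 h, and NNAT, a small membrane protein of developing brain, had 81.9 and 76.8 TPM at 34 h against 368 and 363 TPM at 72 h. Both rose, by 3.28 ± 0.22 (SE, adjusted p 3.41e-05) and 2.19 ± 0.10 (SE, adjusted p 7.58e-06). SNRPN, a splicing protein gene, was the 1 lowered member, with 690.0 and 635 TPM at 34 h against 428 and 449 TPM at 72 h and a fall of 0.59 ± 0.09 (SE, adjusted p 0.00225). GRB10, an adaptor of insulin signalling, did not pass, with 51 and 44.3 TPM at 34 h against 55.9 and 53.3 TPM at 72 h. TPM sums both alleles, so allele use was not measured.

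Cell cycle genes were called in 30.8% of 26 cases, near the 24% of all genes, with 6 raised and 2 lowered, a median of 0.08 and a raised count of 3, 3, 3 and 2 without 34 h replicate 1, 34 h replicate 2, 72 h replicate 1 and 72 h replicate 2 in that order. The lowered count was 0, 1, 0 and 1 without 34 h replicate 1, 34 h replicate 2, 72 h replicate 1 and 72 h replicate 2 in that order. CCND1, cyclin D1, had 88.8 and 65.5 TPM at 34 h against 297 and 302 TPM at 72 h and rose by 1.96 ± 0.18 (SE, adjusted p 0.000191), and MKI67, a marker of cycling cells, had 40.9 and 40.0 TPM at 34 h against 73.5 and 74 TPM at 72 h and rose by 0.85 ± 0.11 (SE, adjusted p 0.00125). PCNA and CCNB1, of replication and of mitosis, did not pass, with 354 and 353 TPM at 34 h against 396 and 355 TPM at 72 h for PCNA and 279.6 and 284 TPM at 34 h against 301 and 293 TPM at 72 h for CCNB1. Of 8 tested DNA methylation genes 3 were raised and 1 lowered, the raised count being 1 and 1 without 34 h replicate 2 and 72 h replicate 1 in that order. UHRF1, which recruits the maintenance methyltransferase, had 49.2 and 37.5 TPM at 34 h against 96.9 and 85.8 TPM at 72 h and rose by 1.07 ± 0.17 (SE, adjusted p 0.00305), while DNMT3B fell by 1.24 ± 0.11 (SE, adjusted p 0.000156). Of 10 p53 target genes 2 were raised and 1 lowered, a share near that of all genes. The raised count was 0 without 34 h replicate 1 or 72 h replicate 2 and 1 without any other library, and the lowered count was 0, 0 and 0 without 34 h replicate 1, 34 h replicate 2 and 72 h replicate 1 in that order. SESN1, a p53 target and stress sensor, did not pass, with 16.7 and 19.9 TPM at 34 h against 23.4 and 21.6 TPM at 72 h.

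**Figure D3:**
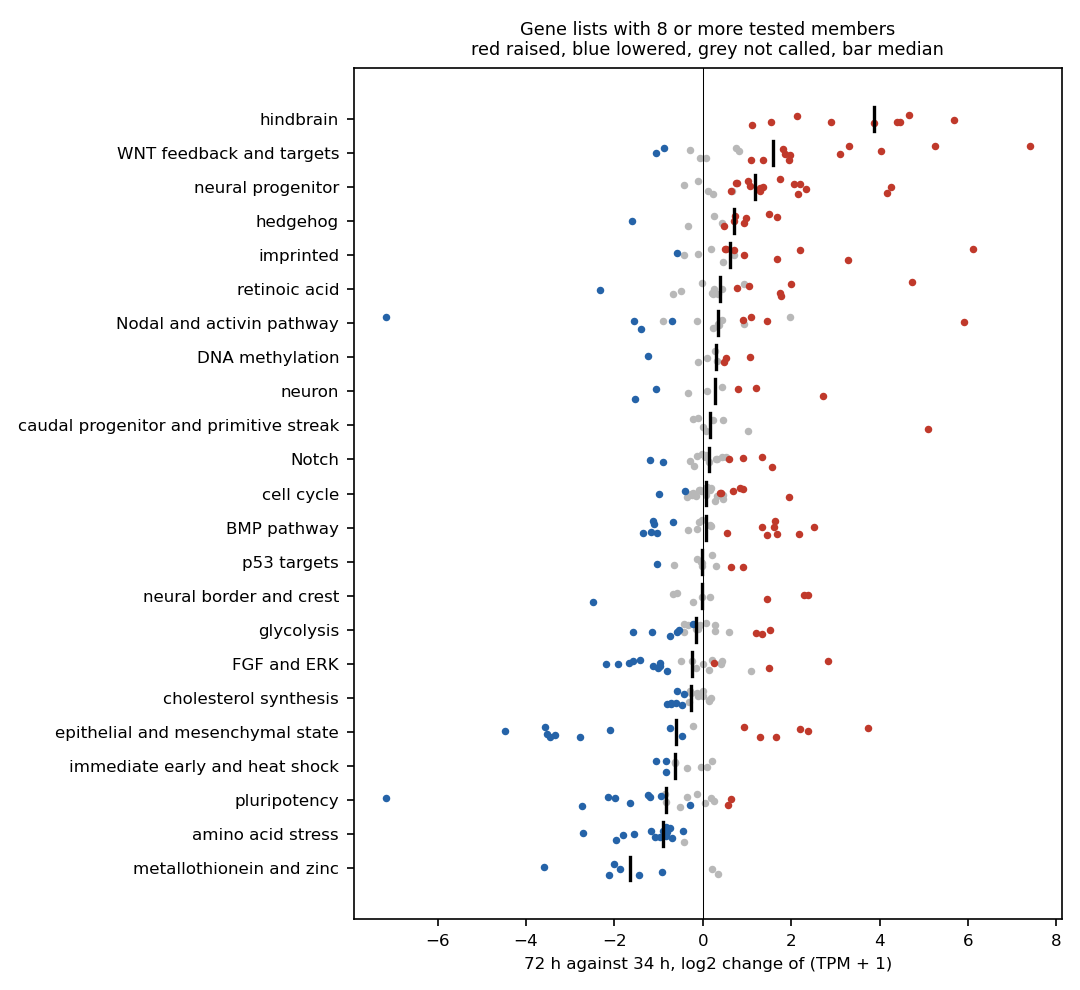
Log2 change at 72 h against 34 h (x axis) of each tested member of the lists with 8 or more tested members (y axis, ordered by median). Red points were raised, blue points lowered and grey points not called, and the black bar is the median of the list. The amino acid stress and metallothionein lists lie left of 0 with few exceptions, the epithelial and mesenchymal list splits to both sides, and the cell cycle list has its median near 0 with CCND1 farthest to the right.

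Markers of other cell types were mostly low, and those that were not are given here with summed TPM of each list. Of 9 endoderm markers 3 were tested, with sums of 17.3 and 18.3 TPM at 34 h against 6.93 and 8.17 TPM at 72 h, and SOX17 was listed at 0 in all 4 libraries. Of the 3, 1 was raised and 2 were lowered. FOXA2, of endoderm and floor plate, had 11.9 and 13.4 TPM at 34 h against 0.575 and 0.866 TPM at 72 h and fell by 2.99 ± 0.18 (SE, adjusted p 1.91e-05). Of 14 mesoderm markers 3 were tested, with sums of 16.3 and 17.2 TPM at 34 h against 9.31 and 10.1 TPM at 72 h. Among the tested markers 2 were lowered and 1 was not called. HAND1 and HAND2 were listed at 0 in all 4 libraries. Of 12 amnion, trophoblast and surface ectoderm markers 2 were tested, with sums of 102 and 105 TPM at 34 h against 11.8 and 11.3 TPM at 72 h. IGFBP3 and KRT7 made up most of these sums, with falls of 3.69 ± 0.21 (SE, adjusted p 1.51e-05) and 2.44 ± 0.19 (SE, adjusted p 7.99e-05). GATA3, ISL1 and TP63 were under 0.1 TPM in each 34 h and 72 h library. The other untested members, GATA2, TFAP2A, CGA, VTCN1, GABRP, KRT5 and KRT14, exceeded 0.1 TPM in at least 1 of the 34 h libraries. The highest was VTCN1, with 0.93 and 1.72 TPM at 34 h against 0.745 and 0.897 TPM at 72 h. The falls of IGFBP3 and KRT7 went in the same direction as the epithelial genes, and their part in that result was not tested.

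Of 8 endothelium and blood markers 2 were tested, with sums of 20.3 and 19.2 TPM at 34 h against 34.3 and 33.4 TPM at 72 h. Of the 2, 1 was raised and 1 lowered, and the lowered call was lost without any 1 of the end-point libraries. TEK, the angiopoietin receptor, made up most of them, with 16.8 and 16.3 TPM at 34 h against 32.7 and 32.3 TPM at 72 h, while CDH5 and PECAM1 stayed under 1 TPM. Of 7 placode markers 3 were tested and none was called by limma. Of 16 neural border and crest markers 9 were tested, with 3 raised and 1 lowered. All 3 raised ones were among the 4 that were under 1 TPM in both 34 h libraries. PAX3, of the dorsal neural tube and crest, had 0.269 and 0 TPM at 34 h against 4.81 and 4.24 TPM at 72 h and rose by 2.29 ± 0.26 (SE, adjusted p 0.000572). FOXD3, of crest and of pluripotent cells, had 4.65 and 4.48 TPM at 34 h and was listed at 0 in both 72 h libraries. Of 17 neuron markers 8 were tested, with 3 raised and 2 lowered. Of the raised ones 1, STMN2, was under 1 TPM in both 34 h libraries. STMN2, a neuronal tubulin-binding protein, had 0.32 and 0.256 TPM at 34 h against 8.01 and 7.1 TPM at 72 h. MAP2 had 29.7 and 27.6 TPM at 34 h against 69.8 and 65.3 TPM at 72 h. SYP, of synaptic vesicles, had 6.63 and 5.72 TPM at 34 h against 1.04 and 1.99 TPM at 72 h. STMN2 rose by 2.73 ± 0.20 (SE, adjusted p 4.94e-05), MAP2 rose by 1.21 ± 0.18 (SE, adjusted p 0.0026) and SYP fell by 1.53 ± 0.26 (SE, adjusted p 0.00449), while NEUROD1 was listed at 0 in all 4 libraries.

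When a single end-point library was left out, counts of 1 or 2 changed by 1 in at least 1 such fit for raised pluripotency, midbrain, forkhead, POU and SFRP or DKK genes and for lowered WNT target, Notch, hedgehog, crest, neuron and integrin genes, and the lowered complex I count was 1, 1, 0 and 1 without 34 h replicate 1, 34 h replicate 2, 72 h replicate 1 and 72 h replicate 2 in that order. The raised caudal progenitor count was 2 without 72 h replicate 1, and without either 50 h replicate 2 laminins were raised. Genes under 1 TPM in both 34 h libraries made up 3 of the 11 raised WNT feedback and target genes and 3 of the 7 raised cadherins. They also made up 2 of the 3 raised WNT ligands and 2 of the 5 raised Frizzled receptors. Where a list had 0 called members in 1 direction, limma at an unadjusted p of 0.05 gave 1 raised claudin, 1 raised forebrain gene and 2 lowered SOX genes, and 0 for the other lists named with a 0, the keratins, neural progenitor, ephrin, cholesterol, amino acid stress, metallothionein, placode, immediate early and mitochondrial genome genes.

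Lists that bear on RNA quality and handling were the following. Of 9 tested immediate early and heat shock genes 3 were lowered and 0 raised, with a median of -0.62 against 0.06 over all genes. JUN had 10.3 and 9.59 TPM at 34 h against 4.63 and 3.89 TPM at 72 h and fell by 1.06 ± 0.16 (SE, adjusted p 0.00282), while HSPA1A did not pass, with 31.6 and 33.3 TPM at 34 h against 37 and 38.1 TPM at 72 h. Of the 13 protein genes of the mitochondrial genome none was called by limma at an adjusted p of 0.05, and the smallest adjusted p was 0.299, for MT-ND2. Cytosolic ribosomal protein genes held 19.95% and 20.5% of TPM at 34 h and 21.1% and 21.5% at 72 h. Of 83 tested 3 were raised and 4 lowered, and with the replicate number as a block 6 were raised and 4 lowered. Without 1 library the raised count ran from 0 (without 34 h replicate 1 or either 72 h replicate) to 5 (without either 50 h replicate), and the lowered count was 2, 2, 2 and 2 without 34 h replicate 1, 34 h replicate 2, 72 h replicate 1 and 72 h replicate 2 in that order. Of 37 nuclear genes of respiratory complex I 1 was raised and 2 lowered. The share called was 8.11% in complex I and 8.43% in ribosomal proteins, against 24% of all genes.

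The end points do not say when a gene moved, so the change from 50 h to 72 h was set against the change from 34 h to 50 h in 1 contrast. The later interval was 22 h long and the earlier 16 h, and the contrast is the later change minus the earlier one. By limma 297 of 14908 genes (1.99%) passed, 69 positive (0.463%) and 228 negative (1.53%), with 1943 at an unadjusted p of 0.05. The count was 173 and 138 without 34 h replicate 1 or 2, 195 and 191 without 42 h replicate 1 or 2, 95 and 118 without 50 h replicate 1 or 2, and 145 and 168 without 72 h replicate 1 or 2. A negative value means a rise that slowed or turned, or a fall that came late.

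The falls of CDH1, EPCAM and ESRP1 came late, and of 13 tested claudins CLDN7 alone had a called negative contrast. CDH1 had 132 and 151 TPM at 42 h, then 95.1 and 105 at 50 h, so it changed by -0.52 up to 50 h and by -2.94 after, a difference of -2.43 ± 0.19 (SE, adjusted p 0.000835). EPCAM changed by -0.73 and then by -2.85, a difference of -2.12 ± 0.24 (SE, adjusted p 0.00377). ESRP1 changed by -0.88 and then by -2.65, a difference of -1.77 ± 0.18 (SE, adjusted p 0.00252). Most of the fall in these 3 genes thus lay between 50 h and 72 h. HMGCS1 rose before it fell, with 248 and 227 TPM at 34 h, then 386 and 383 at 42 h, 309.7 and 297 at 50 h, then 149 and 159.9 at 72 h, a difference of -1.32 ± 0.14 (SE, adjusted p 0.00309).

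Rises that came late were seen in 4 of the 5 most positive genes. EGR2, a zinc finger factor of hindbrain segments, had 0.57 and 1.49 TPM at 34 h, then 0.806 and 1.02 at 42 h, 0.599 and 0.284 at 50 h, then 46.9 and 38.7 at 72 h, a difference of 5.39 ± 0.46 (SE, adjusted p 0.00127). MAPK10, a JNK kinase of the nervous system, had 4.59 and 5.74 TPM at 34 h, then 4.33 and 4.23 at 42 h, 4.87 and 4.42 at 50 h, then 59.5 and 42.5 at 72 h, a difference of 3.31 ± 0.33 (SE, adjusted p 0.00252). CYP26C1, a retinoic acid degrading enzyme, changed by -0.06 up to 50 h and by 4.80 after, a difference of 4.86 ± 0.48 (SE, adjusted p 0.00236). In all 3 the 6 libraries up to 50 h were low and both 72 h libraries high. SMOC1, a further gene of the end-point rule, behaved in the same way, with 3.11 and 3.24 TPM at 34 h, then 5.22 and 4.17 at 42 h, 6.15 and 5.65 at 50 h, then 99.1 and 73.9 at 72 h and a difference of 2.93 ± 0.31 (SE, adjusted p 0.00309). TNP1, a chromatin protein known from sperm, had 0 and 0.47 TPM at 34 h, then 0.938 and 0 at 42 h, 0 and 0.538 at 50 h, then 11.4 and 14.6 at 72 h and a difference of 3.45 ± 0.67 (SE, adjusted p 0.0466), and its call was lost in 11 of the alternatives, among them the replicate block (adjusted p 0.0622) and each fit without an end-point or a 50 h library (up to 0.254). MT1G, a metallothionein, was lower at 50 h than at either end, with 70.4 and 58.8 TPM at 34 h, then 18.1 and 17.9 at 42 h, 4.43 and 4.36 at 50 h, then 16.6 and 14.1 at 72 h, a difference of 5.19 ± 0.24 (SE, adjusted p 8.33e-05).

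Rises that came early and then slowed or turned were seen in all 5 of the most negative genes, SP5 among them (-7.19 ± 0.34 (SE, adjusted p 8.33e-05)). GBX2, a homeobox factor of the anterior hindbrain, had 1.31 and 1.21 TPM at 34 h, then 102 and 85.9 at 42 h, 132 and 97.8 at 50 h, then 112 and 119 at 72 h, a difference of -5.64 ± 0.27 (SE, adjusted p 8.33e-05). FST changed by 4.71 up to 50 h and by 1.19 after (-3.52 ± 0.15 (SE, adjusted p 8.33e-05)), and WLS by 4.96 and then 0.12 (-4.84 ± 0.37 (SE, adjusted p 0.000761)). GAD1, the enzyme that makes GABA, had 1.49 and 0.083 TPM at 34 h, then 48 and 43.5 at 42 h, 47.9 and 44.8 at 50 h, then 11.9 and 21.2 at 72 h. WNT5B, a WNT ligand, had 1.69 and 0.918 TPM at 34 h, then 52.9 and 42.1 at 42 h, 49.6 and 43.9 at 50 h, then 12.7 and 16.3 at 72 h. TNFRSF11B, the decoy receptor osteoprotegerin, had 0.329 and 1.2 TPM at 34 h, then 18 and 23.7 at 42 h, 27.3 and 30.6 at 50 h, then 9.12 and 10.5 at 72 h. These 3 were all higher at 42 h and 50 h than at either end, with differences of -6.34 ± 0.65 (SE, adjusted p 0.00275), -6.02 ± 0.36 (SE, adjusted p 0.000396) and -5.60 ± 0.43 (SE, adjusted p 0.000761), and their end-point rises of 3.36, 2.76 and 2.65 are what was left of a higher level. SLC2A3 and FOXB1 from the lists above also had most of their rise by 50 h, with differences of -1.92 ± 0.19 (SE, adjusted p 0.00232) and -2.76 ± 0.20 (SE, adjusted p 0.000761).

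**Figure D4:**
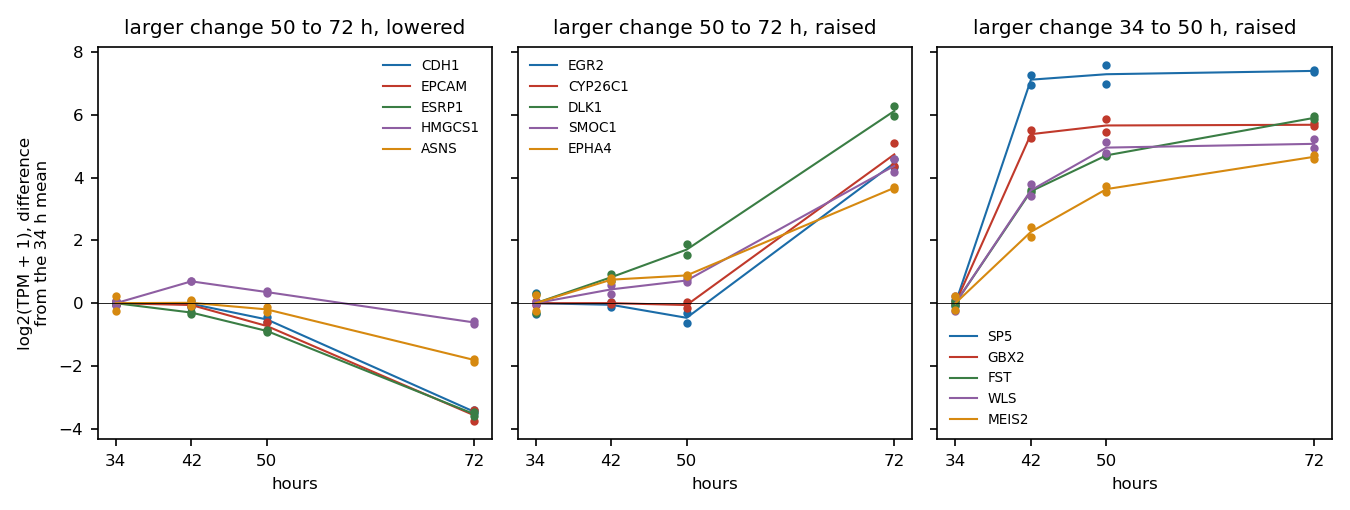
Log2(TPM + 1) as the difference from the 34 h mean (y axis) against hours (x axis) for 15 genes in 3 panels. Points are single libraries and lines join the means of 2 libraries. The left panel shows genes whose fall lay mostly after 50 h, the middle panel genes at most 1 log2 unit above their 34 h mean at 42 h and at most 2 at 50 h, and the right panel genes that had most of their rise by 50 h.

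The most abundant of the called genes are given next. Among the 10 most abundant raised genes outside the mitochondrial genome only MDK passed in each of 17 refits with other settings or without 1 library, the test against a minimum change of 1 not being among them. MDK, the growth factor midkine, had 617 and 551 TPM at 34 h against 1179 and 1299 TPM at 72 h and rose by 1.08 ± 0.14 (SE, adjusted p 0.00115). Among the 10 most abundant lowered genes FTL, ACTG1, HSP90AB1, HSPA8 and CD24 passed in each such refit. FTL, the ferritin light chain, had 2960.1 and 3228 TPM at 34 h against 1733 and 1782 TPM at 72 h, a fall of 0.81 ± 0.07 (SE, adjusted p 0.000115). CD24, a surface protein of stem and epithelial cells, had 1681 and 1709 TPM at 34 h against 884 and 864 TPM at 72 h, a fall of 0.95 ± 0.08 (SE, adjusted p 0.000113). HSPA8 and HSP90AB1, constitutive chaperones, fell by 0.82 ± 0.11 (SE, adjusted p 0.00114) and 0.41 ± 0.06 (SE, adjusted p 0.00233), and ACTG1, cytoplasmic actin, fell by 0.59 ± 0.07 (SE, adjusted p 0.000932).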

How the data were processed

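Per the labels' protocols, the 8 libraries came from poly(A)-selected RNA with paired-end reads. The authors deposited 1 table of TPM per Ensembl gene with 1 column per library. The submitters' processing notes name Salmon 1.9.0 and GRCh38, without saying how they were used, and the annotation is not given in the sources used here. Each column summed to 1000000. TPM of the 37951 Ensembl rows were summed by symbol to 35940 symbols, of which 1034 had more than 1 row. The 14908 symbols at 1 TPM or more in 2 or more libraries were tested, as log2(TPM + 1).

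limma 3.58.1 (R 4.3.3) fitted a model with 1 mean per time point to the 8 libraries, with a variance trend and 4 residual degrees of freedom, since the end points alone leave 2. Adjusted p-values are two-sided Benjamini-Hochberg values over all 14908 genes, called under 0.05. An exact permutation test of 2 against 2 cannot go below 0.333 and was not used. The fit was tested on simulated data. The contrast of the later with the earlier change is 72 h minus 50 h less 50 h minus 34 h.

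The members of the comparison, the 30 lists and 29 symbol families were chosen with earlier results of these data known. A symbol pattern for transfer RNA synthetases matched no symbol. Named genes are those of the lists and families, the 15 largest rises and 15 largest falls among genes whose higher time point averaged 5 TPM or more and whose log2 change reached 1, with the same sign, in both replicates, the 10 most abundant called genes in each direction, and the 5 most positive and 5 most negative of the later minus the earlier change. The text says where a gene was chosen outside this rule. Some genes of the lists are not reported here.

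In the labels the batch has the replicate number. Same-numbered libraries were taken as paired only for changes within a replicate and for the replicate block. The main fit held no replicate term, so its p-values do not use this pairing. The replicate differences across genes correlated at 0.0949, 0.195 and 0.142 among 34, 42 and 50 h, and those of 72 h with them at -0.0445, -0.0779 and -0.104. Values with the block are given only where the call of a gene in the text changes, and for 2 list counts.

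Positions are GENCODE 29 on GRCh38, 1-based, matched by Ensembl identifier. Promoters are from a RefSeq table of GRCh38.p14 and were matched by symbol. Alternatives were a pseudocount of 0.1, no filter, a mean of at least 5 TPM, TMM (trimmed mean of M values) and quantile scaling, mitochondrial genes left out, no variance trend, the compared time points alone, the block, a minimum change of 1 (limma's treat), Ensembl rows kept apart, and each library left out. Their use on counts per list was added after the data were seen.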

Additional observations from a re-analysis of the deposited data

How the results depend on the processing

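At 72 h against 34 h the 3578 calls became 3019 to 3601 with another pseudocount, filter, scaling, variance or set of libraries, or with Ensembl rows apart, except that a mean of at least 5 TPM left 10852 genes to test and 2899 calls. Against a minimum log2 change of 1, 352 calls were left. Without 1 library there were 1867 to 3629. The share of raised calls was 53.1%, 44.8% after TMM rescaling and 41.5% against the minimum change. For the later minus the earlier change the 297 calls became 171 without the filter, 194 with 34, 50 and 72 h fitted alone, 60 against a minimum change of 1 and 95 to 195 without 1 library, where fewer samples leave fewer residual degrees of freedom. The pairing by batch label, as a replicate block, gave 3601 and 268 calls and changed the call of SLC7A11 at the end points and of TNP1 in the later minus the earlier change, and of no other gene whose values are given. Counts in some lists moved with it, among them ribosomal proteins (raised, 3 to 6) and glycolysis (lowered, 6 to 9). Of 225 tests of genes whose values are given 219 kept call and direction in each of up to 17 alternatives, without the test against a minimum change. Those that turned direction were all uncalled: GLI1, from -0.747 to 0.0924 without 1 library (the highest without 34 h replicate 1), and ID3, from -0.00571 to 0.38 (the lowest without 72 h replicate 2). The other calls that changed were those of ATF4, SLC7A11, TNP1 and NANOG. Counts per list were recomputed after the data were seen. The 2 libraries per time point limit the precision, and depth is unknown.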

Other observations

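Genes with receptor or channel symbols of excitable cells were called in both directions, in 32% and 30.2% of cases, near the 24% of all genes. The receptor symbols include GRINA and GRID2IP, which are named for proteins associated with receptors. Of 25 tested genes with glutamate or GABA receptor symbols 6 were lowered and 2 raised. Of the 2 raised genes 1 was under 1 TPM in both 34 h libraries and entered the test only through later ones. GABRA5, a GABA-A receptor subunit, had 10.8 and 14.6 TPM at 34 h against 2.99 and 2.13 TPM at 72 h and fell by 1.94 ± 0.20 (SE, adjusted p 0.000375), and GRM4, a metabotropic glutamate receptor, fell by 1.65 ± 0.16 (SE, adjusted p 0.000264), from 23.8 and 20.4 to 5.6 and 7.12 TPM. GABBR1, a GABA-B receptor subunit, was raised, with 78.8 and 83.6 TPM at 34 h against 117 and 129 TPM at 72 h and a rise of 0.59 ± 0.09 (SE, adjusted p 0.00309). Of 43 tested genes with potassium, sodium or calcium channel symbols 8 were lowered and 5 raised. These counts were 5, 3, 4 and 4 without 34 h replicate 1, 34 h replicate 2, 72 h replicate 1 and 72 h replicate 2 in that order for lowered and 2, 3 and 2 without 34 h replicate 2, 72 h replicate 1 and 72 h replicate 2 in that order for raised genes. Of the 5 raised channel genes 1 was under 1 TPM in both 34 h libraries and entered the test only through later ones. CACNA1E, a calcium channel subunit, had 1.5 and 0.847 TPM at 34 h against 8.57 and 6.79 TPM at 72 h and rose by 2.01 ± 0.23 (SE, adjusted p 0.000641). KCNK1, a potassium channel, had 5.75 and 7.4 TPM at 34 h against 0.83 and 0.887 TPM at 72 h and fell by 2.02 ± 0.22 (SE, adjusted p 0.000518).

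Chaperones were called in 29.4% and glutathione S-transferases in 44.4% of cases, against 24% of all genes. Of 17 tested genes with HSP70 or HSP90 symbols 5 were lowered and 0 raised, HSPA4 among the lowered with 238 and 266 TPM at 34 h against 155 and 156 TPM at 72 h and a fall of 0.69 ± 0.12 (SE, adjusted p 0.00454). The raised count was 0 also at an unadjusted p of 0.05 by limma. Of 9 tested glutathione S-transferases 3 were raised and 1 lowered, the raised count being 1 and 1 without 34 h replicate 2 and 72 h replicate 1 in that order and the lowered count 0 and 0 without 34 h replicate 1 and 72 h replicate 1 in that order. GSTM2 had 14.5 and 14 TPM at 34 h against 26.4 and 27.9 TPM at 72 h and rose by 0.89 ± 0.14 (SE, adjusted p 0.0028).

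Further genes were chosen after their values were seen. DAZL, an RNA-binding protein known from germ cells, had 2.28 and 1.81 TPM at 34 h, then 2.51 and 3.85 at 42 h, 7.74 and 6.69 at 50 h, then 33 and 28 at 72 h, a rise of 3.37 ± 0.21 (SE, adjusted p 2.21e-05). IFI6, an interferon-induced gene, had 9.89 and 6.0 TPM at 34 h, then 13.6 and 14.2 at 42 h, 32.1 and 20.2 at 50 h, then 61.6 and 62.1 at 72 h, a rise of 2.85 ± 0.25 (SE, adjusted p 0.000153). IGFBP5, a secreted IGF-binding protein, had 58.7 and 55.8 TPM at 34 h, then 59.1 and 52.9 at 42 h, 126 and 101 at 50 h, then 489.9 and 456 at 72 h, a rise of 3.02 ± 0.12 (SE, adjusted p 4.49e-06). SPP1, the secreted phosphoprotein osteopontin, had 33.6 and 44.7 TPM at 34 h, then 18.1 and 23.1 at 42 h, 11.7 and 16.6 at 50 h, then 2.88 and 4.24 at 72 h, a fall of 3.14 ± 0.24 (SE, adjusted p 6.47e-05). VGF, a secretory granule protein as CHGA is, had 52 and 43.3 TPM at 34 h, then 36.4 and 25.4 at 42 h, 22.4 and 21.2 at 50 h, then 5.74 and 8.81 at 72 h, a fall of 2.58 ± 0.22 (SE, adjusted p 0.000143). In all 5 the libraries of 34 h and 72 h did not overlap.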
